A study of Homo sapiens with 14 samples.

Results

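KLF4 binding was examined in BEAS-2B cells lacking Nrf2, with and without trivalent arsenic (As3+). The line, BEAS-2B, is derived from human bronchial epithelium and is long established. The Nrf2 KO As3+ list of KLF4 peaks was set against the Nrf2 KO control list, on chromosomes 1 to 22 and X. A KO As3+ peak that shared at least 1 bp with a KO control peak was counted as kept, and the rest as new. A KO control peak without such an overlap was counted as lost. The KO As3+ list held 130 peaks and the KO control list 76521, which together are 76651 of the 107268 KLF4 peaks of the 4 KLF4 libraries in the series. Both KO libraries came from cells in which Nrf2 had been disrupted with CRISPR-Cas9 and guides to exon 2. By their labels the 2 libraries differ in treatment only, the treated cells having received 1 µM As3+ for 6 h and the control cells none. KO colonies had been chosen for the absence of Nrf2 protein, and how many colonies the KO line came from is not given in the sources used here. The other KLF4 libraries were WT cells with the same treatment and WT cells without it. With 1 library per condition, differences could not be checked in a replicate, and p-values across peaks were not computed. Kept, lost and new describe membership of the deposited lists alone.

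KLF4 is a zinc finger transcription factor that binds GC-rich sequences holding a CACCC-type core, and it is known for its roles in epithelial differentiation and in pluripotency. Nrf2 is the basic leucine zipper factor that drives antioxidant genes through the antioxidant response element (ARE). Arsenite is a thiol-reactive agent that activates Nrf2 in many cell types.

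The lists give for each peak a fold enrichment at the summit over the local background and a −log10 p, by which peaks were ranked. With p read as a Poisson tail, both values were solved for the fragments over a summit and for the background expected there, and every peak of both lists could be fitted (largest misfit in −log10 p, 0.000287). This background was lowest at 1.64 fragments in the KO As3+ list and 0.491 in the KO control list, while the WT lists stood at 0.757 with As3+ and 1.90 without. At its lowest background a KO As3+ peak had at least 10 fragments and a fold of at least 4.17, against 4 fragments and a fold of 3.35 in the KO control list. Of the 76521 KO control peaks, 54679 (71.5%) had a fold of 4.17 or more, and 60 of these were kept. The input library is labelled as BEAS-2B with no KO or treatment, and the part that backgrounds and thresholds play in the lengths of the lists was not tested. A peak list does not hold the edited sequence, so the KO itself could not be checked.

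Of the 130 KO As3+ peaks, 67 overlapped a KO control peak (51.5%, 95% Clopper-Pearson interval 42.6 to 60.4), and 63 did not. In the other direction 62 of the 76521 KO control peaks overlapped a KO As3+ peak (0.081%, 0.0621 to 0.104), which leaves 76459 lost peaks. All such intervals cover counting error only. The KO As3+ peaks covered 0.0376 Mb, or 0.00124% of these chromosomes, and the KO control peaks 26.4 Mb, or 0.871%. Median fold was 4.69 in both lists. The median −log10 p was 9.14 with As3+ and 6.05 without, and a typical summit had 19 and 7 fragments (medians). The KO As3+ list was thus short, with more fragments per peak than the whole control list, while the 130 strongest control peaks had a median of 27.5, above the 19 of the KO As3+ peaks.

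The sequences around the summits of kept peaks are shown first, because these peaks were in both KO lists. Each is the plus strand of hg38, 101 bases long and centred on the summit. Capitals mark the searched words, on either strand. These are the KLF words CCACGCCC and CCACACCC, the AP-1 words TGACTCA and TGAGTCA, and the ARE core TGACNNNGC, of which an AP-1 word followed by GC is also a match. Within 100 bp, 7 of the 67 kept peaks (10.4%) hold a KLF word, so the peaks shown for a word are not typical. The KLF word of the rank 7 peak ends on the last of the 101 bases, so that peak is not among these 7. Of the 14 strongest KO As3+ peaks, the kept one near CFAP300 (rank 11) holds a KLF word but is not shown. The 4 kept peaks below are also among these 14 and hold a KLF word. The first lies in exon 2 of MYCN (rank 4, chr2:15942226-15942326), the second in intron 2 of the lncRNA ENSG00000132832 (rank 7, chr20:44693143-44693243), the third between genes near the pseudogene ENSG00000270558 (rank 8, chr5:37272748-37272848) and the last in intron 6 of SGMS1 (rank 14, chr10:50418346-50418446), a sphingomyelin synthase gene.
MYCNOS, rank 4: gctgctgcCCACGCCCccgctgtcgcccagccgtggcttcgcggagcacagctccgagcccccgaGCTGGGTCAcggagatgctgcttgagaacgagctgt
ENSG00000132832, rank 7: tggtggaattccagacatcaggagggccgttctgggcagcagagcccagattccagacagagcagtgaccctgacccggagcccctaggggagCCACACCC
ENSG00000270558, rank 8: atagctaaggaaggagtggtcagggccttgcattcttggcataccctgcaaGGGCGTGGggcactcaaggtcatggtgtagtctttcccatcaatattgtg
ENSG00000225303, rank 14: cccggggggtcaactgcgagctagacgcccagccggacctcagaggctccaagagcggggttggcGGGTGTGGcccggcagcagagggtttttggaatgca

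The next 3 kept peaks hold an AP-1 word, and the second of them a KLF word beside it. They lie in KRT8 outside its canonical transcript (rank 30, chr12:52927340-52927440), between genes near LINC00592 (rank 50, chr12:52147464-52147564) and between genes near MIR23AHG (rank 89, chr19:13851259-13851359).
KRT18, rank 30: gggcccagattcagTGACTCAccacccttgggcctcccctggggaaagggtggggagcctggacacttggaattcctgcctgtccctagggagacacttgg
LINC00592, rank 50: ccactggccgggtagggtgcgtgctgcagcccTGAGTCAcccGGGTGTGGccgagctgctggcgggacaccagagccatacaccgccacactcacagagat
MIR23AHG, rank 89: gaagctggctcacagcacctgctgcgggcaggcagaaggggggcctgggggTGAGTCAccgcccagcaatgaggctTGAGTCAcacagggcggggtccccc

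The strongest peak of the KO As3+ list, in MYCN (chr2:15940850-15940950), the strongest EGFR peak (chr7:55019688-55019788) and the strongest of the peaks on chromosome 16 (chr16:46389853-46389953) hold none of these words within 101 bases. The chromosome 16 window is shown because it repeats a 5-base unit, GGAAT, which is known as the unit of a human satellite repeat. It is left in lower case.
MYCN, rank 1: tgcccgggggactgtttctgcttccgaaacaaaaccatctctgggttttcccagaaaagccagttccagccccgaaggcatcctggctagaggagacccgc
EGFR, rank 12: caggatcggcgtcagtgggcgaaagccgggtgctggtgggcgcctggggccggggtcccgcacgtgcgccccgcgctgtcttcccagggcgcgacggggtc
RNU6-845P, rank 6: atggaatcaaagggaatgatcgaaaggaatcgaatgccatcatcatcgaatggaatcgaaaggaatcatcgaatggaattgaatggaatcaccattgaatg

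Of the new peaks, FBLN2 (chr3:13537939-13538039) and EHD4-AS1 (chr15:41930376-41930476) were the strongest, WBP1L (chr10:102743550-102743650) was the strongest that no other list held, and the peak near ENSG00000270001 (chr20:23622889-23622989) held both a KLF and an AP-1 word.
FBLN2, rank 10: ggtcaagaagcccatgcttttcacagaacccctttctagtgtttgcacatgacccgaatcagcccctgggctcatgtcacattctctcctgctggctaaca
EHD4-AS1, rank 15: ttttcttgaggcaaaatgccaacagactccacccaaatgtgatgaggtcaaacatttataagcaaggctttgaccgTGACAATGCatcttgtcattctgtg
WBP1L, rank 20: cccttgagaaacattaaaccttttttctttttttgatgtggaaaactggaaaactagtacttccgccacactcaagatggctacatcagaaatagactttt
ENSG00000270001, rank 90: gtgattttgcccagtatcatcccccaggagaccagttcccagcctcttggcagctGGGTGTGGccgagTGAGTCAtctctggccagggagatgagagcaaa

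The strongest KO As3+ peaks lay in 1 region of chromosome 2. Between 15560312 and 16665650 the list held 9 peaks, all of them kept, including ranks 1 to 4. The same stretch held 28 KO control peaks, of which 7 were kept and 21 lost. MYCN, a transcription factor of the MYC family, had its main KO As3+ peak in intron 1 (chr2:15940476-15941492) with a fold of 17.3 and 45 fragments over a background of 1.66. The KO control peak there had a fold of 47.6 and 70 fragments over a background of 0.491, and ranked 2. NBAS, which takes part in Golgi to endoplasmic reticulum transport, had a peak in intron 1 (chr2:15560312-15561609) with a fold of 12.5 and 53 fragments in the KO As3+ list. Its KO control value was a fold of 44.3 with 93 fragments, the highest rank of that list. DDX1, a DEAD-box RNA helicase gene, had 71 fragments and a fold of 8.49 with As3+ against 88 fragments and 32.4 without.

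These 3 genes had lower folds and higher backgrounds in the KO As3+ list. Their backgrounds were 1.66, 3.33 and 7.49 with As3+ and 0.491, 1.12 and 1.75 without. CYRIA, a regulator of RAC1-dependent actin assembly, held 2 of the 9 peaks. Its intron 1 peak had a fold of 8.35 with 21 fragments against 23.4 with 37 fragments in the control, and its intron 2 peak 4.86 against 11.7. A peak between genes near ENSG00000237633 ranked 48 with a fold of 6.07 and 15 fragments, while the control peak ranked 12 with a fold of 22.7. Without the stretch from 100 kb before NBAS to 100 kb after MYCN, the kept share was 49.2% (61 of 124).

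A second cluster, of 5 kept peaks, lay on chromosome 7 from 54758685 to 55020284. EGFR, the epidermal growth factor receptor, had 3 KO As3+ peaks within a single KO control peak of 2197 bp (chr7:55018463-55020659), which had a fold of 26.4 and 41 fragments. The folds of the 3 peaks were 8.80 in intron 1, 5.24 before the start of the gene and 5.39 in exon 1, with 25, 16 and 15 fragments. SEC61G-DT, a lncRNA divergent to the gene for the gamma subunit of the SEC61 translocon, had 2 peaks with folds of 5.34 and 3.0 inside a control peak of 2143 bp with a fold of 21.2. The MYCN and MYCNOS control peak of 3095 bp was likewise met by 3 KO As3+ peaks. At these 3 loci 1 wide KO control peak thus stood against several narrower ones. The untreated WT list also held narrow peaks at MYCN. Each of the 3 MYCN and MYCNOS peaks met a WT control peak of its own, of 1156, 619 and 712 bp. At EGFR and SEC61G-DT only the strongest peak met one, of 455 and 428 bp.

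Outside these clusters S100A14, LEMD2 and MYL12A had kept peaks within 2 kb of their TSS among the 20 strongest. S100A14, an epithelial calcium-binding protein gene, had a peak 782 bp before its TSS with a fold of 8.97 and 49 fragments against 21.2 and 52 fragments in the control. LEMD2, a gene of the nuclear envelope, had a peak 117 bp before its TSS with a fold of 6.68 and 39 fragments against 20.2 and 57. At MYL12A, a myosin regulatory light chain gene, the fold was 5.28 with 35 fragments against 5.92 with 16. In EHD1 the peak of rank 18, nearest to the TSS of CDC42BPG, had 6.01 with 30 fragments against 8.01 with 17. The nearest protein-coding TSS of the kept peaks of ranks 7, 8 and 14 were those of CCN5, CPLANE1 and ASAH2, 21651, 23422 and 138676 bp away. MYL12A and EHD1 thus had more fragments with As3+ than without, over backgrounds of 5.82 and 4.16 with As3+ against 1.87 and 1.25.

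The 5 kept peaks on chromosome 16 lay within 4.75 kb (chr16:46386304-46391049), between genes, and the nearest TSS, of the small nuclear RNA gene RNU6-845P, was at least 165401 bp away. They had up to 188 fragments, the most of the list, over backgrounds of 29.5 to 83.2, and folds of 1.63 to 2.40. Each of the 5 held at least 5 copies of GGAAT on either strand within 200 bp of sequence. In all, 7 of the 67 kept peaks (10.4%) and 0 of the 63 new peaks (which allows up to 4.76%) held 5 or more copies, against 0.0850% of the lost peaks and 0.0906% of all 200 bp windows of the genome. Among the 130 strongest KO control peaks, 1.98% of the lost and 17.2% of the kept ones did. The unit was chosen after the sequences had been seen. KO As3+ peaks with a background of 10 or more numbered 8, of which 6 were kept, and without these 8 the kept share was 50% (61 of 122).

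Across the 67 kept peaks the fold at the summit was lower in the KO As3+ list in 62 and higher in 5. These 67 pairs rest on 62 control peaks. The wide control peaks at MYCNOS and EGFR each served 3 pairs, and that at SEC61G-DT served 2. The median fold was 4.67 with As3+ and 10.2 without, with a median ratio of 0.414 (range 0.140 to 1.40). The number of fragments, by contrast, was higher with As3+ in 36 of the 67 pairs, with medians of 25 and 26. The background was higher with As3+ in all 67, with medians of 4.57 and 1.27. Single pairs differed in fragments in both directions, by 1.5 times or more toward As3+ in 17 and toward the control in 19, with ratios from 0.357 to 3.45. The lower folds thus went with higher backgrounds, and the part of the background in them was not tested. KO As3+ peaks were narrower in 63 pairs and lay wholly inside the control peak in 53, with median widths of 257 and 800 bp. The summits were a median of 75 bp apart, and 41 were within 100 bp. The largest gap was 2168 bp, so the 2 values of a pair can come from different places.

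**Figure D1:**
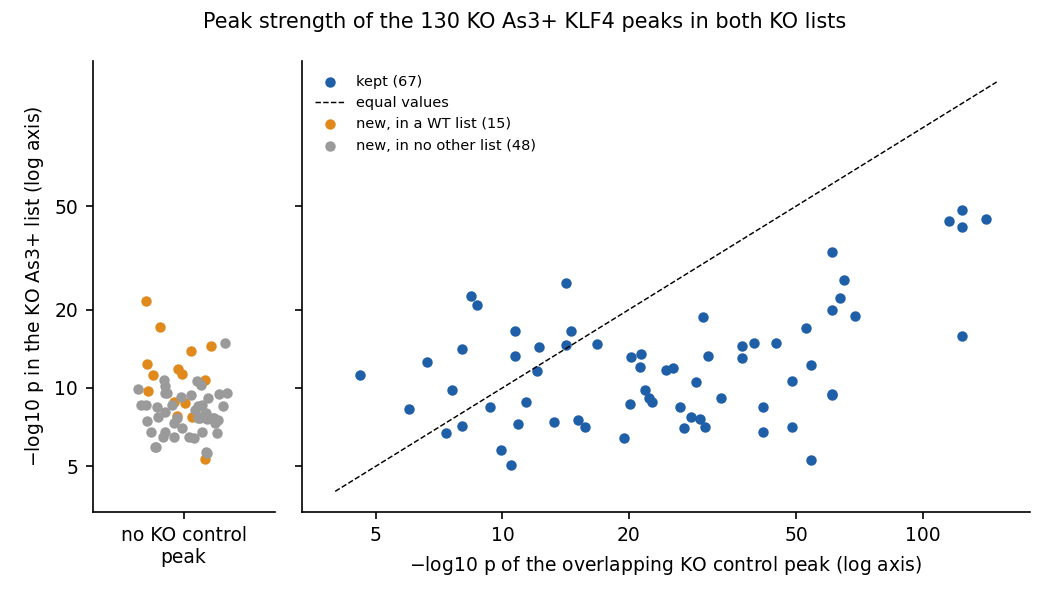
Strength of the 130 KO As3+ KLF4 peaks as −log10 p, on a log axis, against that of the overlapping KO control peak for the 67 kept peaks (right) and for the 63 new peaks without one (left). Points are single peaks of 1 library per condition. Most kept peaks (54) lie below the dashed line of equal values and 13 lie above it.

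The 5 kept peaks with a higher fold in the KO As3+ list were weak in the control. They were those near ENSG00000270558 (7.0 with As3+, 5.59 without), CFAP300 (8.50 and 6.06), MAP1LC3C (5.69 and 5.34), MAP1LC3B2 (5.21 and 4.64) and SLX4IP (4.05 and 3.48). Their control ranks ran from 12637 to 65786. The MAP1LC3 genes encode LC3 proteins of the autophagosome, and SLX4IP binds the nuclease scaffold SLX4. Of the 5 peaks, 4 were also in both WT lists, and that near ENSG00000270558 ranked 3 in the WT control list.

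The KO control peaks that were kept were wide and strong. Their median width was 676 bp against 267 bp for lost peaks, their median fold 8.48 against 4.69 and their median −log10 p 22.1 against 6.05. The share kept fell with rank in the KO control list. All 10 strongest were kept, 18 of the next 90 (20%), 10 of the next 900 (1.11%), 14 of the next 9000 (0.156%) and 10 of the last 66521 (0.0150%). By fold, 10 of 11 control peaks at 20 or more were kept and 29 of 384 at 10 or more (7.55%). The partners of the kept KO As3+ peaks nonetheless reached far down the control list. Of the 67, 24 had a control rank over 1000 and 10 over 10000. In the KO As3+ list 22 of the 26 strongest peaks were kept and 12 of the 26 weakest.

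**Figure D2:**
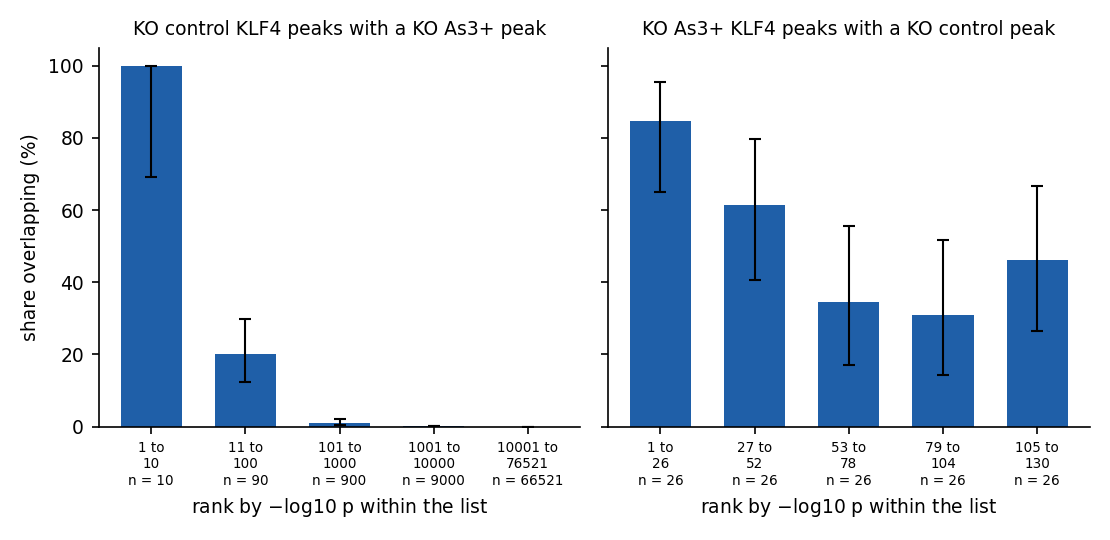
Share of KLF4 peaks that overlap a peak of the other KO list, in percent, by rank on −log10 p within the KO control list (left) and the KO As3+ list (right). Error bars are 95% Clopper-Pearson intervals, and n is the number of peaks in each bin. The share in the KO control list falls from 100% for ranks 1 to 10 to 0.0150% for ranks 10001 to 76521.

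At equal list length the picture was one of partial overlap. The 130 strongest KO control peaks were those with a −log10 p of 23.3 or more. The peaks on either side of that limit had folds of 11.4 and 12.1. Of these 130 peaks, 29 had a KO As3+ peak (22.3%, 15.5 to 30.4) and 101 did not. Conversely 34 of the 130 KO As3+ peaks met one of them (26.2%, 18.8 to 34.6). The 29 kept had a median fold of 15.3 and a median of 39 fragments, and the 101 lost had 12.2 and 26. Median widths were 888 and 836 bp.

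The strongest lost peaks lay mostly near a TSS. HM13, which encodes signal peptide peptidase, led them at rank 11 with a fold of 16.3 and 50 fragments, 62 bp before the TSS (chr20:31514158-31515094). PCIF1, a cap-specific mRNA methyltransferase gene, had a fold of 16.2 with 42 fragments 99 bp before its TSS. KMT2A, a histone H3 lysine 4 methyltransferase gene, had the highest fold of any lost peak, 20.3 with 30 fragments, 129 bp before its TSS. NBPF1 had 8.98 with 64 fragments in exon 1, and TAGLN2, an actin-binding protein gene, had 14 with 33 fragments in intron 1. The lost peak near ENSG00000273069 had a fold of 16, that in DYNC2I2 near ENSG00000280758 had 13.7, and that near LINC02298 had 14.7. Their nearest protein-coding TSS were those of GTF2I, DYNC2I2 and GPR132, 43548, 21313 and 26256 bp away. Of the 8 peaks named, that in DYNC2I2 alone lay over 2 kb from any TSS. All of these 8 peaks were in the WT As3+ list, with folds from 6.45 at NBPF1 to 23.6 at HM13, and all but NBPF1 in the WT control list. The other 2 of the 10 strongest lost peaks were on chromosome 8 and are counted without being named.

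By their medians the new peaks were weaker and narrower than the kept ones. Their median width was 219 bp, their median −log10 p 8.44 and their median number of fragments 14, against 257 bp, 11.7 and 25 for kept peaks. Median folds were close, at 4.79 and 4.67. Of the 63 new peaks, 48 were in no other KLF4 list of the series, and 15 were in a WT list. The 48 had 10 to 29 fragments (median 13), a median background of 1.68 and −log10 p values from 5.63 to 14.9. The 15 had a median of 26 fragments. Of the 28 KO As3+ peaks within 2% of the lowest background, 22 were in no other list, with 10 to 15 fragments, and the other 6 were kept, with 12 to 45 fragments.

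**Figure D3:**
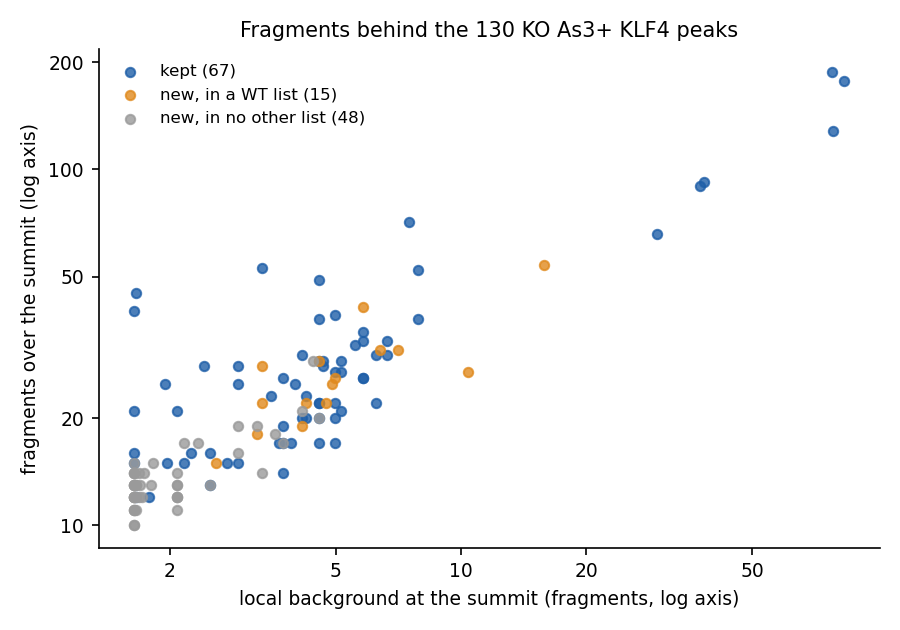
Fragments over the summit against the local background, both in fragments on log axes, for each of the 130 KO As3+ KLF4 peaks. The 48 new peaks in no other list sit at 10 to 29 fragments, 22 of them within 2% of the lowest background of 1.64, and the chromosome 16 peaks lie at the upper right.

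The strongest new peaks were also in the WT lists. FBLN2, an extracellular matrix gene, had a peak 11136 bp before its TSS (chr3:13537806-13538209) with a fold of 6.16 and 41 fragments, and folds of 9.47 and 7.84 in the WT lists with and without As3+. EHD4-AS1 had a peak in intron 3 of EHD4 (chr15:41930250-41930597) with a fold of 6.70 and 28 fragments, and folds of 12.1 and 12.0. In intron 2 of the pseudogene HMGB1P50 the fold was 5.38, and in intron 38 of CDH23, nearest to the TSS of VSIR, it was 4.32. Both were in both WT lists. EIF3FP1, a pseudogene on chromosome 21, had a fold of 3.27 with 54 fragments over a background of 15.8. The WT folds of FBLN2 and EHD4-AS1 were thus higher than those in the KO As3+ list. Other new peaks among the 10 strongest were near ENSG00000248884 with a fold of 5.32, CALM2 with 4.51 and LINC01348 with 3.97. That near ENSG00000289170 had 4.40, and its nearest protein-coding TSS, 1498 bp away, was that of DUSP1, a MAP kinase phosphatase gene.

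WBP1L, at rank 20, was the strongest peak of the KO As3+ list that was in no other list, with a fold of 5.55 and 29 fragments 348 bp before its TSS (chr10:102743474-102743692). It was thus the only one of the 10 strongest new peaks absent from both WT lists. Among the others in no list but this, METAP1, a methionine aminopeptidase gene, had a peak 457 bp before its TSS with 13 fragments. CTH, the cystathionine gamma-lyase that makes cysteine, had one in intron 1 with a fold of 4.71 and 19 fragments. METAP1 and CTH were named after their values had been seen. Elsewhere within the gene or 2 kb of it, WBP1L had 4 KO control and 3 WT As3+ peaks, and METAP1 had 3 and 1. CTH had 0 in both lists. With gaps of up to 500 bp allowed, 76 of the 130 KO As3+ peaks (58.5%) met a KO control peak.

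Kept peaks lay closer to TSS than new ones. These classes were set by overlap with the KO control list, and several kept peaks share a region or a control peak. The intervals below are therefore no test of this difference. Of the 67 kept KO As3+ peaks, 38 had a summit within 2 kb of a TSS (56.7%, 44 to 68.8), against 12 of the 63 new peaks (19.0%, 10.2 to 30.9). Among the 48 in no other list, 6 did (12.5%, 4.73 to 25.2), and 34 lay over 10 kb away (70.8%, 55.9 to 83.0). The median distance was 939 bp for kept peaks and 18573 bp for new ones. Over the whole lists 50 of 130 KO As3+ peaks (38.5%, 30.1 to 47.4) and 34.1% of KO control peaks were within 2 kb. At equal length the 130 strongest control peaks stood at 70.0% (61.3 to 77.7), the lost ones among them at 73.3% and the kept ones at 58.6%. Strong control peaks were therefore more often near a TSS than the KO As3+ peaks of a list of the same length. Outside the NBAS to MYCN region 32 of 61 kept peaks were near a TSS (52.5%).

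**Figure D4:**
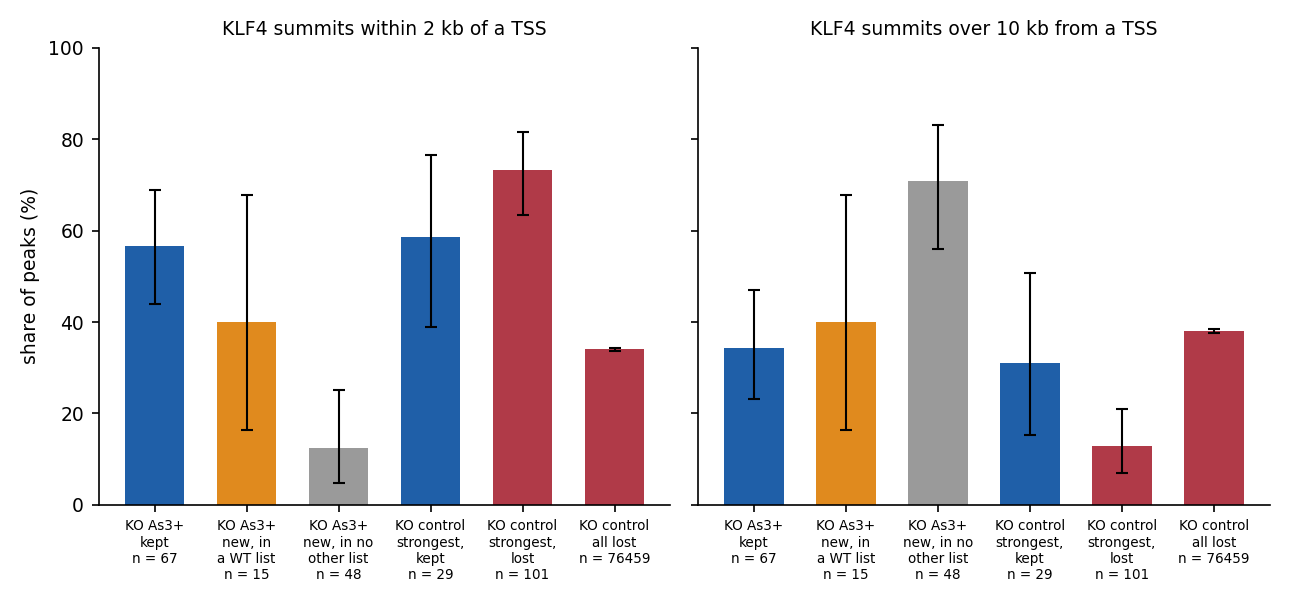
Share of KLF4 peaks with a summit within 2 kb of a TSS (left) and over 10 kb from one (right), in percent with 95% Clopper-Pearson intervals, for classes of KO As3+ and KO control peaks. Peaks in no other list stand at 12.5% near a TSS and 70.8% far from one, and lost peaks among the 130 strongest controls at 73.3% and 12.9%.

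By canonical transcripts, 7 kept peaks were in exons, 29 in introns and 24 between genes, and the remaining 7 in a gene but outside its canonical transcript. Of the new peaks 4 were in exons, 24 in introns and 28 between genes, so 35 of 63 new and 43 of 67 kept peaks lay inside a gene. The nearest TSS belonged to a protein-coding gene for 35 kept and 18 new peaks. No KO As3+ peak lay on the X chromosome, which held 1149 KO control peaks (1.5% of that list), and 0 of 130 allows a share of up to 2.31% with As3+. Chromosome 10 held 12 KO As3+ peaks, of which 10 were new, and chromosome 2 also held 12, of which 10 were kept. Chromosome 8 held 7, of which 6 were new, and the kept one, at rank 41, was the strongest.

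The WT lists were used to ask where else the KO As3+ peaks occur. Of the 67 kept peaks, 64 were in the WT As3+ list (95.5%, 87.5 to 99.1) and 46 in the WT control list (68.7%, 56.2 to 79.4). Of the 63 new peaks, 14 (22.2%, 12.7 to 34.5) and 11 (17.5%, 9.05 to 29.1) were. With a −log10 q of 5 or more in all lists, kept and new were set again on the shorter lists. A kept peak whose control partner fell under that limit counts as new there. By these classes 60.0% of new peaks (9 of 15) and 94.3% of kept peaks were in the WT As3+ list. In all, 46 of the 130 peaks were in all 4 lists. The 3 kept peaks found in no WT list were near MIR378B, ENSG00000255575 and ENSG00000269745, named after their values had been seen.

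Peaks that were weak in the KO control could be strong in the WT control. Of the 24 kept peaks with a KO control rank over 1000, 15 were in the WT control list and 11 among its 130 strongest. Of the 130 strongest WT control peaks, 35 had a KO As3+ peak (26.9%, 19.5 to 35.4), against 29 of the 130 strongest KO control peaks (22.3%) and 24 of the 130 strongest WT As3+ peaks (18.5%, 12.2 to 26.2), intervals that overlap. The lost peaks were in the WT As3+ list in 21.6% of cases and the 101 strongest lost in 93.1%, but in the WT control list in 0.456% and 23.8%. The WT lists differ in length, at 29866 and 751 peaks.

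**Figure D5:**
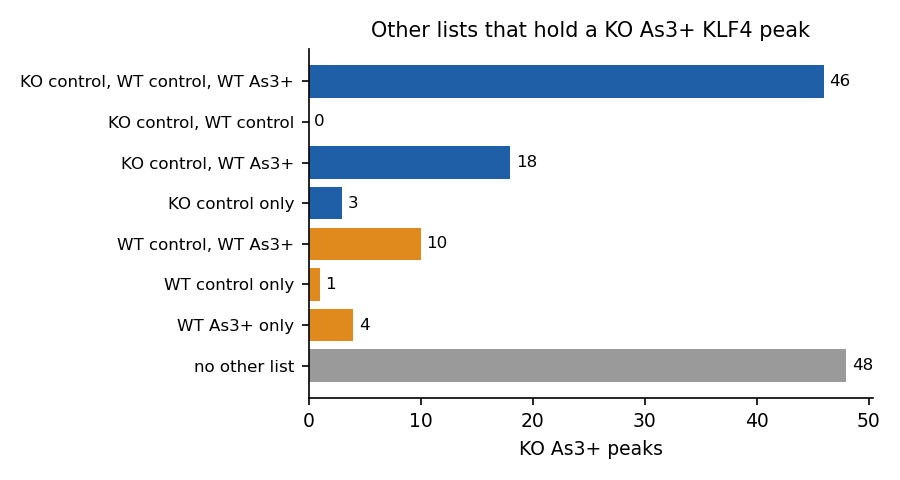
Number of the 130 KO As3+ KLF4 peaks found in each combination of the other 3 lists, with at least 1 bp of overlap. Of these peaks 46 were in all lists and 48 in no other, and 0 were shared with both control lists but not with the WT As3+ list.

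In terms of genes, a gene was counted where a summit lay within it or within 2 kb of it. Of 62062 annotated genes, 124 had a KO As3+ peak (0.2%) and 27342 a KO control peak (44.1%). Of the 124, 115 had a KO control peak as well. Protein-coding genes with a peak numbered 83 of 19970 (0.416%) with As3+ and 15749 (78.9%) without. MYCN and MYCNOS had 4 KO As3+ peaks each, EGFR 3, and CYRIA, MEGF6, SEC61G and SEC61G-DT 2 each. The KO control list had 2, 3, 3, 6, 79, 1 and 2 peaks at these 7 genes, so MEGF6, with 79 control peaks in a large gene, was the one that differed most in number. The 9 genes with a KO As3+ peak but no KO control peak included CTH, NOP53, MIR449A and MIR449B, named after their values had been seen. NOP53 had 1 peak in the WT As3+ list. MIR449A and MIR449B were counted through the same KO As3+ peak as MIR449C, a gene with 1 KO control peak.

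Gene lists chosen for the tissue and treatment had few or no members in the KO As3+ list. Of 33 Nrf2 target genes, 26 had a KO control peak (78.8%) and 0 a KO As3+ peak. The same held for heat shock genes (20 and 0 of 20), metallothionein genes (11 and 0 of 13), AP-1 factors (16 and 0 of 17) and mesenchymal genes (16 and 0 of 17). The members with a KO As3+ peak were SP9 of the 25 KLF and SP factors, of which 24 had a control peak, EGFR of the 11 ERBB receptors and ligands (9 in the control) and KRT8 of the 18 epithelial keratin and junction genes (16 in the control). Of 11 genes that the study describes with KLF4 ChIP-seq, chosen there on these samples, EGFR had a KO As3+ peak and all 11 a control peak. Of 8 leukocyte and endothelial marker genes, 0 and 4 did. Since 0.416% of all protein-coding genes held a KO As3+ peak, counts of 0 or 1 in lists of 8 to 33 genes are near that background and are no result about these lists.

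KRT8, a keratin of simple epithelia, had its KO As3+ peak at rank 30 (chr12:52927246-52927505) with a fold of 5.13 and 28 fragments, against a fold of 10.3 in the control. The summit of this peak lay 22564 bp from the KRT8 TSS, and its nearest TSS, that of KRT18, was 21481 bp away. SP9, a zinc finger factor of the SP family, had its peak in exon 2 with a fold of 5.06 and 15 fragments, against 7.39 in the control. KLF4 itself had 4 KO control peaks, the strongest with a fold of 6.03, and 0 KO As3+ peaks.

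Words of the KLF and AP-1 type were more common within 200 bp of sequence at kept summits than in genome windows of like GC content. Of the 67 kept peaks, 15 held a KLF word (22.4%, 13.1 to 34.2), or 3.15 times the share in GC-matched windows (1.84 to 4.81). An AP-1 word was held by 9 (13.4%), or 5.34 times the matched share (2.52 to 9.53). Within 100 bp the KLF ratio of kept peaks was 3.01 (1.24 to 5.87), and the AP-1 word was held by 3 kept peaks, a ratio of 3.68 with an interval from 0.768 to 10.3 that includes 1. For the 63 new peaks the KLF word stood at 4 (6.35%, ratio 1.92, 0.531 to 4.67) and the AP-1 word at 6 (9.52%, ratio 3.03, 1.14 to 6.24). The ARE core was near its matched share in both, with ratios of 0.870 and 0.978. The difference between kept and new peaks in these shares was not tested.

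Among the lost peaks the KLF word had a ratio of 1.22 (1.19 to 1.25) and the AP-1 word 1.03 (0.988 to 1.08). The 101 strongest lost peaks held the KLF word in 17.8%, a ratio of 2.26 (1.39 to 3.39). They held the AP-1 word in 1.98%, a ratio of 1.47 (0.179 to 5.18). Within 100 bp that KLF ratio was 1.80, with an interval from 0.790 to 3.41 that includes 1. They also held the GC box CCCCGCCCC in 18.8% (ratio 1.90) and a CG run, CGCGCG, in 21.8% (ratio 1.60). In kept KO As3+ peaks these stood at 2.99%, a ratio of 0.898 (0.109 to 3.12), and at 5.97%, a ratio of 1.49 (0.412 to 3.64). Of 35116 RefSeq promoters on GRCh38, each 300 bp long, 8.05% hold the KLF word, 4.95% the AP-1 word, 13.3% the ARE core, 15.7% the GC box and 16.4% the CG run. Median GC content was 59.5% at kept, 42.0% at new and 61.5% at lost summits, and 71% at the 101 strongest lost. A word match is a description of the letters and not a binding site.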

How the data were processed

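KLF4 ChIP-seq peak lists of 2 Nrf2 KO libraries were analysed, with 2 WT lists for comparison. Per the labels and the paper, the authors aligned reads with BWA to GRCh38/hg38, and the submitters' processing notes name bcl2fastq 2.17. The peak caller is not given in the sources used here. In each list the authors deposited a score, a fold enrichment (a ratio over local background), a −log10 p and a −log10 q per peak. Read totals were not used, so depth is known through fragments and background only, which were solved from the deposited fold and −log10 p. Peaks were compared by overlap of 1 bp, and ranked by −log10 p. Peaks on the Y chromosome and contigs were left out of the main counts. Genes and TSS came from GENCODE 44. All peak ends of the KO lists lay within the chromosome lengths of hg38. Motif words were counted in 200 bp around summits and in 14555311 genome windows, in GC bins of 5 percentage points. Steps were tested on simulated data. Named genes are the nearest TSS (and protein-coding TSS) of the 20 strongest KO As3+ peaks and of the 10 strongest kept, new and lost peaks, genes with 2 or more KO As3+ peaks, and listed genes with one. Members and lists were chosen with earlier results of these data known. Chromosome 8 peaks were counted but not named. Alternatives are given in the closing section. Python 3.11.15, numpy 2.4.6, pandas 2.3.3, scipy 1.17.1 and matplotlib 3.10.9 were used.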

Additional observations from a re-analysis of the deposited data

Results flagged for a closer look

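The number of KLF4 peaks changed in opposite directions with As3+ in the genotypes. The WT As3+ list held 39.8 times as many peaks as the WT control list, and the Nrf2 KO As3+ list 0.00170 times as many as the Nrf2 KO control list. With 1 library per condition this difference between genotypes was not tested. In each genotype the list with fewer peaks had the higher lowest local background. These backgrounds were 1.90 and 0.757 in the WT lists without and with As3+ and 0.491 and 1.64 in the KO lists. Their part in the result was not tested.

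On contigs outside the chromosomes used, the KO As3+ list held 10 of its 140 peaks (7.14%), against 0.290% of the KO control list, 0.287% of the WT As3+ list and 1.18% of the WT control list. The strongest of these contig peaks, with a −log10 p of 49.1, would rank 1 in the KO As3+ list.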

How the results depend on the processing

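No paired analysis was possible because each condition has 1 library, and for the same reason no library could be left out. Of 57 alternative values over 13 results, 35 stayed within the 95% interval of the value reported, or within 1.5 times for counts of genes, and 22 did not. With a −log10 q of 5 or more in all lists (50 KO As3+ and 16156 KO control peaks), 70.0% of KO As3+ and 0.204% of KO control peaks were kept. In these lists 55.5% of KO control peaks were near a TSS, and 53 and 14267 genes had a peak. Of the peaks that were new by these shorter lists, 60.0% were in the WT As3+ list. With the 130 strongest of each list by −log10 p, 26.2% and 22.3% were kept, 70.0% of the control peaks were near a TSS and 171 genes had one, and by fold these were 21.5%, 17.7%, 73.8% and 181. Kept KO control peaks came to 0.0222% with an overlap of 0.5 of the peak, 0.0614% with the summit inside and 0.114% with gaps of up to 500 bp. The KO control share near a TSS was 25.7% at 1 kb, 47.4% at 5 kb and 25.3% for protein-coding TSS. Genes with a KO As3+ summit within 2 kb of their TSS numbered 60. Against genome windows of any GC content the KLF word ratio of kept peaks was 8.25. The shorter lists hold fewer peaks by construction, and the cause of the other differences was not tested. Alternatives that left out peaks with a background of 10 or more, and those on the WT lists, were chosen after seeing the data. With contigs and the Y chromosome added, TSS and gene counts were not run, since the annotation holds no contigs. Intervals rest on 130 or fewer KO As3+ peaks, and peaks under the threshold of a list are not seen.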

Other observations

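The kept peaks at 3 more genes had lower folds in the KO As3+ list than in the KO control or WT As3+ list. A fold below that of the KO control was found in 62 of the 67 kept peaks, so it is not particular to these genes. They were chosen after their values had been seen. CALCOCO1, an autophagy receptor gene, had the strongest WT control peak (11.1), with folds of 20.1 in the WT As3+ list and 4.98 in the KO As3+ list. Its KO control peak ranked 22. TUBB2A, a beta-tubulin gene, had a fold of 17.1 in the KO control and 3.51 in the KO As3+ list, and RAB6A, a Golgi GTPase gene, 16.9 and 4.07. Fragments at CALCOCO1, TUBB2A and RAB6A were 33, 20 and 20 in the KO As3+ list and 39, 46 and 37 in the KO control. Backgrounds were 5.82, 4.99 and 4.16 against 1.67, 1.75 and 1.25, and their part in the folds was not tested.

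Among peaks in no other list, 1 lay 47 bp from the start of MIR449C, in intron 2 of CDC20B on chromosome 5, with a fold of 4.15 and 18 fragments over a background of 3.58. CDC20B hosts the miR-449 family, which is known from multiciliated airway cells. The MIR449C peak, too, was picked after its values had been seen.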
